A study of Mus musculus with 24 samples.

Results

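Neutrophils are the granulocytes that reach injured tissue first, and 10 genes that mark them were followed through RNA-seq of the mouse choroid, the vascular and pigmented layer behind the retina. The genes were listed by name, with earlier results of these data known, and all 10 were found among the 56065 genes of the deposited table. They comprised S100a8 and S100a9, the receptors and surface antigens Cxcr2 and Ly6g, the granule genes Mpo, Elane, Camp, Ngp and Ltf, and Retnlg. A total of 24 libraries was analysed, with 4 wild type and 4 Ceacam1-/- libraries without laser, and 9 wild type and 7 Ceacam1-/- libraries with laser. Ceacam1 encodes an adhesion and signalling molecule carried by endothelial and immune cells. All mice were on a C57BL/6J background, the mutants had a homozygous germline deletion of exons 1 and 2 of Ceacam1 in all cells, and the controls were wild type littermates, young adults of both sexes. The laser protocol in the labels, which was written beside every library, named 6 spots per eye at 150 mW, 200 µm and 100 ms, and it aimed at inducing choroidal neovascularization. The time between laser and tissue collection and the sex of each mouse are not given by the labels.

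Neutrophils are made in the bone marrow, and their granule proteins are transcribed in sequence there. Myeloperoxidase and neutrophil elastase of the primary granules come first, lactoferrin, cathelicidin and neutrophilic granule protein of the secondary granules follow, and gelatinase granule genes such as Mmp9 come late. Cells that have left the marrow keep little granule mRNA, while transcripts of S100a8, S100a9 and Cxcr2 remain, and in laser-injured choroid neutrophils are known to arrive early, before or together with monocytes.

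Among the 10 genes, S100a8 was the one that rose after laser in either genotype. Its partner S100a9 was higher on average without passing the threshold, Cxcr2, Camp and Ltf were not distinguishable from the libraries without laser, and Ly6g, Mpo, Elane, Ngp and Retnlg were too low to be fitted. No listed gene passed the threshold between the genotypes. Values are normalized counts, that is, estimated reads divided by the authors' factors for library size and transcript length. They are not whole reads, so that the read depth of each value is unknown. A library summed to between 23704346 and 35094410 normalized counts, and between 25021 and 27964 genes were above 0. In bulk tissue, fewer cells of a type and less RNA per cell cannot be told apart.

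**Figure D1:**
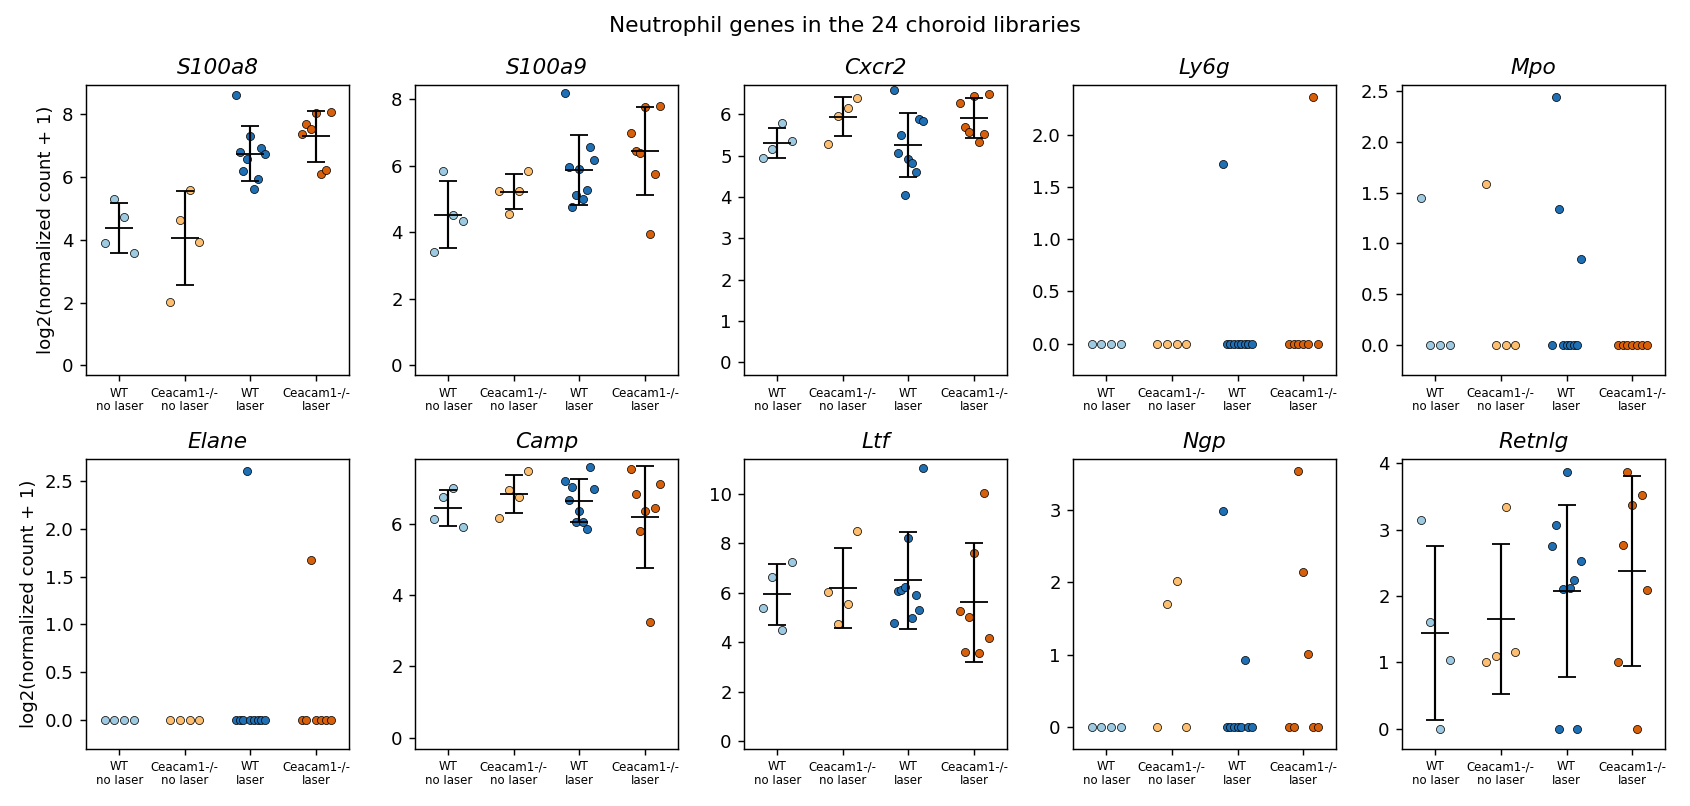
Each panel shows one of the 10 genes, with a point for each library at log2 of the normalized count plus 1 (vertical axis, own range in each panel) and the 4 groups along the horizontal axis; bars give the mean and SD for the 6 genes above 0 in at least 20 libraries. The S100a8 points of both laser groups lie above all points of the matching group without laser, whereas Ly6g and Elane are at 0 in all but 2 libraries each.

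The deleted gene and the tissue were checked against their labels. Ceacam1 had 958 to 5027 normalized counts in wild type libraries without laser (median 2919) and 405 to 1171 in Ceacam1-/- libraries without laser (median 506). With laser, Ceacam1 lay between 774 and 8367 in wild type (median 996) and between 67.8 and 905 in Ceacam1-/- libraries (median 335). The medians were lower in the mutants, while the ranges overlapped in both settings. The overlap came from Ceacam1-/- library 28 without laser (1171) and library 15 with laser (905), which also had the most Krt5, a keratin of surface epithelium, among the 24 libraries. All other Ceacam1-/- libraries lay at or below 508 without and 438 with laser, under every wild type library of the same setting. A gene total also counts reads outside the deleted exons, so it is a weak check of the label. Markers of the choroid were present in every library, with the endothelial receptor Kdr between 2370 and 6288 and the melanocyte gene Pmel between 933 and 48613 normalized counts.

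Tissue beside the choroid was also present and varied between libraries of one group. The mean log2 value over a list of photoreceptor genes ranged from 8.60 in Ceacam1-/- library 25, without laser, to 16.6 in Ceacam1-/- library 18, with laser. Libraries are numbered as in the sample labels. Krt5, which was chosen after its values were seen, ranged from 2.36 to 97240 normalized counts, and 8 libraries had 1000 or more. These were wild type libraries 22 and 27 and Ceacam1-/- libraries 23 and 28 without laser, and wild type libraries 12 and 19 and Ceacam1-/- libraries 7 and 15 with laser. Differences of the 5 tested genes and counts of the main lists are therefore also given without these 8 libraries, which leaves 2 libraries against 7 in wild type and 2 against 5 in Ceacam1-/- mice.

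S100a8 and S100a9 encode the subunits of calprotectin, a calcium and zinc binding complex that makes up much of the neutrophil cytosol and is also made by monocytes and, under stress, by surface epithelium. Both genes lie on chromosome 3 of GRCm39, S100a8 on the forward strand at chr3:90567118-90578128 and S100a9 on the reverse strand at chr3:90599931-90603071, with 21.8 kb between them. Since the pair moved together across laser libraries, their promoters are shown, each with 250 bases before and 50 bases from the RefSeq start, 5′ to 3′ on the strand of the gene. The RefSeq table was built on GRCm38.p6, and both sequences were found unchanged in GRCm39, at chr3:90576128-90576427 on the forward and chr3:90602979-90603278 on the reverse strand. Capitals mark TATAAA and the C/EBP-like letters TTGCNNAA or TTNNGCAA.
S100a8: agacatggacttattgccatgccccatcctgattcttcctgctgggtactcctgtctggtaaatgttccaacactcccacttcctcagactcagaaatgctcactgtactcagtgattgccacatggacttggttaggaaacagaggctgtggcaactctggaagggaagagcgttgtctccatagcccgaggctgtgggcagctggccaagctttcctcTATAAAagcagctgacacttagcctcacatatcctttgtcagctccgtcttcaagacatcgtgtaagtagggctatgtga
S100a9: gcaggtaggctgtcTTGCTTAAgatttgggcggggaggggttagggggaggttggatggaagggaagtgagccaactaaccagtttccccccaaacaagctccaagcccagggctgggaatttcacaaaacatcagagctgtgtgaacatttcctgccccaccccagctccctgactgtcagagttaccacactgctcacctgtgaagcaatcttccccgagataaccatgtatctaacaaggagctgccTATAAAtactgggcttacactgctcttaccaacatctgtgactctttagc
C/EBP factors direct granulocyte genes, and the sites they prefer are of this form. One C/EBP-like match stood in the S100a9 window and 0 in the S100a8 window. These letters, which read as each other on the opposite strand, were present in 10.8% of 27025 promoters of this length, and TATAAA, a motif searched after the sequences were seen, in 14.2% on either strand. In S100a8, TATAAA began 30 bases before the RefSeq start, and in S100a9 it began on the RefSeq start itself. A match is a description of the sequence and not a binding site.

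In wild type mice without laser, S100a8 had 10.9, 14.0, 25.6 and 38.2 normalized counts. With laser, the 9 wild type libraries had 47.7 to 388 (median 106). All laser libraries lay above all libraries without laser, and library 1 stood far above the rest. Ceacam1-/- libraries without laser had 3.09, 14.4, 23.7 and 46.6 normalized counts of S100a8. The 7 Ceacam1-/- libraries with laser had 67.2 to 268 (median 184), again without overlap. Separation of this kind in the higher direction was seen in 4.5% of the 19950 genes tested in wild type and in 1.17% in Ceacam1-/- mice. By limma, S100a8 rose in wild type by 2.37 on the log2(value + 1) scale (SE 0.56, 95% interval 1.21 to 3.53, adjusted p = 0.0129). In Ceacam1-/- mice it rose by 3.25 (SE 0.59, adjusted p = 0.00315). It was 1 of 5 listed genes tested in either comparison, while 4.23% of all tested genes were called higher and 1.05% lower in wild type, and 2.07% and 1.65% in Ceacam1-/- mice. Single libraries without laser moved these shares. The genes called in either direction numbered 1053 in wild type, but 479 without library 21 and 554 without library 27. In Ceacam1-/- mice they numbered 742, but 2488 without library 23, 255 without library 24 and 148 without library 25, and 466 without laser library 5.

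S100a8 was higher with laser under every alternative run, while its call depended on the libraries. Without the libraries rich in Krt5 the difference was 2.34 in wild type (adjusted p = 0.0987) and 2.25 in Ceacam1-/- mice (adjusted p = 0.0578). With the mean of the photoreceptor list as a covariate it was 2.03 (adjusted p = 0.0126) and 3.79 (adjusted p = 9.21e-05). The wild type call was also lost without library 21 (2.21, adjusted p = 0.065) or library 27 (2.10, adjusted p = 0.076), both without laser, and the Ceacam1-/- call in a fit of its own 11 libraries (3.25, adjusted p = 0.0834).

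S100a9 was less clear. Wild type libraries without laser had 9.57, 19.4, 21.98 and 56.2 normalized counts, and those with laser 26.03 to 292 (median 58.6). Ceacam1-/- libraries without laser had 22.4, 36.8, 37.0 and 56.0, and those with laser 14.3 to 221 (median 86.0). The groups overlapped in both genotypes, with 5 of 9 and 5 of 7 laser libraries above all libraries without laser. The limma difference was 1.35 in wild type (SE 0.63, unadjusted p = 0.0413, adjusted p = 0.226) and 1.22 in Ceacam1-/- mice (SE 0.65, adjusted p = 0.303). With weights for the quality of each library, the latter was 1.99 and passed the threshold (adjusted p = 0.0174), in a fit that called 9.5% of all tested genes higher in place of 2.07%.

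The subunits were also compared with each other. Per kilobase of the longest annotated transcript, which has 639 bases for S100a8 and 869 for S100a9, the ratio of S100a8 to S100a9 was above 1 in 9 of 9 wild type and 7 of 7 Ceacam1-/- laser libraries. Without laser it was above 1 in 2 of 4 and 2 of 4 libraries. The ratio had a median of 2.15 in wild type and 1.91 in Ceacam1-/- laser libraries, against 1.25 and 0.89 without laser, and library 23 had the lowest value of 0.11. The ratio was examined after the values were seen, and it was not tested.

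**Figure D2:**
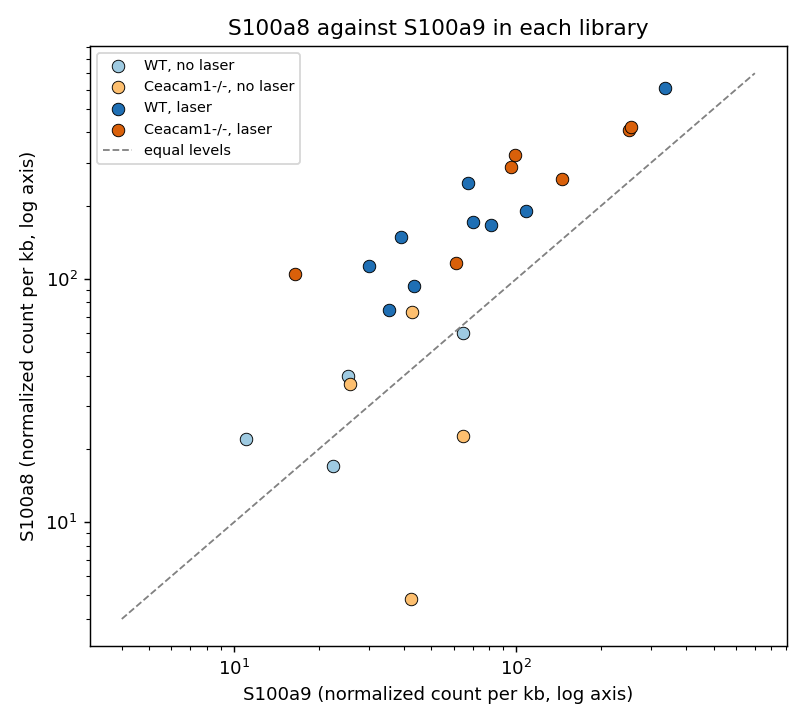
Each point is one library, with S100a9 on the horizontal and S100a8 on the vertical axis, both in normalized counts per kilobase on log axes, coloured by group; the dashed line marks equal levels. All 16 laser libraries lie above the line, as do 4 of the 8 libraries without laser.

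Cxcr2, the receptor for the chemokines that draw neutrophils out of the blood, did not pass the threshold after laser. Wild type libraries had 29.6, 34.6, 40.2 and 54.2 normalized counts without and 15.6 to 94.8 (median 32.2) with laser. Ceacam1-/- libraries had 37.8, 61.0, 69.8 and 83.6 without and 39.0 to 88.9 (median 50.9) with laser. The ranges overlapped in both genotypes. The limma differences were -0.06 (95% interval -0.84 to 0.72) and -0.04 (-0.86 to 0.77), with adjusted p = 0.942 and 0.957. These small values changed sign under several of the alternatives.

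Ly6g, the surface antigen by which mouse neutrophils are sorted, was above 0 in 2 of 24 libraries. It had 2.30 normalized counts in wild type laser library 1 and 4.14 in Ceacam1-/- laser library 15. All 8 libraries without laser and the other 14 with laser were listed at 0. Library 1 was also the library with the most S100a8 and S100a9.

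The primary granule genes were close to absent. Mpo, which encodes myeloperoxidase and overlaps a lncRNA on the opposite strand, was above 0 in 5 of 24 libraries. Its values were 1.73 in wild type library 21, 2.01 in Ceacam1-/- library 23, and 0.80, 1.52 and 4.43 in wild type laser libraries 19, 3 and 2. All 7 Ceacam1-/- laser libraries were listed at 0. Elane, the neutrophil elastase gene, was above 0 in 2 laser libraries, with 5.07 in wild type library 11 and 2.20 in Ceacam1-/- library 6.

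The 3 secondary granule genes, which share chromosome 9, behaved in 3 ways. Ngp, a cystatin-like granule protein, was above 0 in 7 of 24 libraries. Of wild type libraries, the 4 without laser and 7 of the 9 with laser were listed at 0, the others being library 16 with 0.90 and library 1 with 6.96. Ngp in Ceacam1-/- libraries was 0, 0, 2.25 and 3.06 without laser and 0 to 10.6 (median 0) with laser. The groups overlapped, and the highest value was in Ceacam1-/- laser library 6, which also held Elane.

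Camp, the precursor of the antimicrobial peptide cathelicidin, was present in every library, with and without laser. Wild type libraries had 58.4, 69.5, 106 and 125 normalized counts without and 56.2 to 191 (median 100.1) with laser. Ceacam1-/- libraries had 70.2, 106, 121 and 176 without and 8.40 to 183 (median 85.1) with laser. The ranges overlapped throughout, and the lowest value was that of Ceacam1-/- laser library 14. The limma differences were 0.20 (95% interval -0.90 to 1.29, adjusted p = 0.854) and -0.64 (-1.77 to 0.50, adjusted p = 0.539).

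Ltf, which encodes the iron-binding lactoferrin of secondary granules and of tears and other secretions, spread most widely. Wild type libraries had 21.4, 41.1, 97.1 and 149 normalized counts without and 26.4 to 2075 (median 66.3) with laser. Ceacam1-/- libraries had 25.4, 45.0, 64.9 and 357 without and 10.7 to 1033 (median 31.0) with laser. The groups overlapped and the limma differences were 0.58 (SE 1.11, adjusted p = 0.791) and -0.59 (SE 1.16, adjusted p = 0.81). The second changed to 0.60 with a score of surface epithelium genes as a covariate and to 0.18 without library 28.

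High Ltf was found where surface epithelium was high. The 7 libraries with the most Ltf were all among the 8 with 1000 or more normalized counts of Krt5, in which Ltf ranged from 64.9 to 2075. In the other 16 libraries Ltf ranged from 10.7 to 74.2. S100a8 did not follow this order, with 3.09 to 261 normalized counts in the 8 libraries and 14.0 to 388 in the 16. Of the 10 surface epithelium genes, 0 rose and 0 fell with laser in either genotype, and their median log2 difference was -0.81 in wild type and -2.64 in Ceacam1-/- mice, where the median of all genes was -0.10 and 0.02. Without the 8 libraries rich in Krt5 the wild type direction turned, with 2 of 9 tested genes risen and a median of 2.70, while 3 of 9 fell in Ceacam1-/- mice (median -2.48). Their sum, led by Krt15, had group medians of 45880 and 10285 normalized counts without laser and 756 and 545 with laser, in wild type and Ceacam1-/- mice, and no gene of the list was at 0 in every library. The part of this tissue in the Ltf values was not tested.

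**Figure D3:**
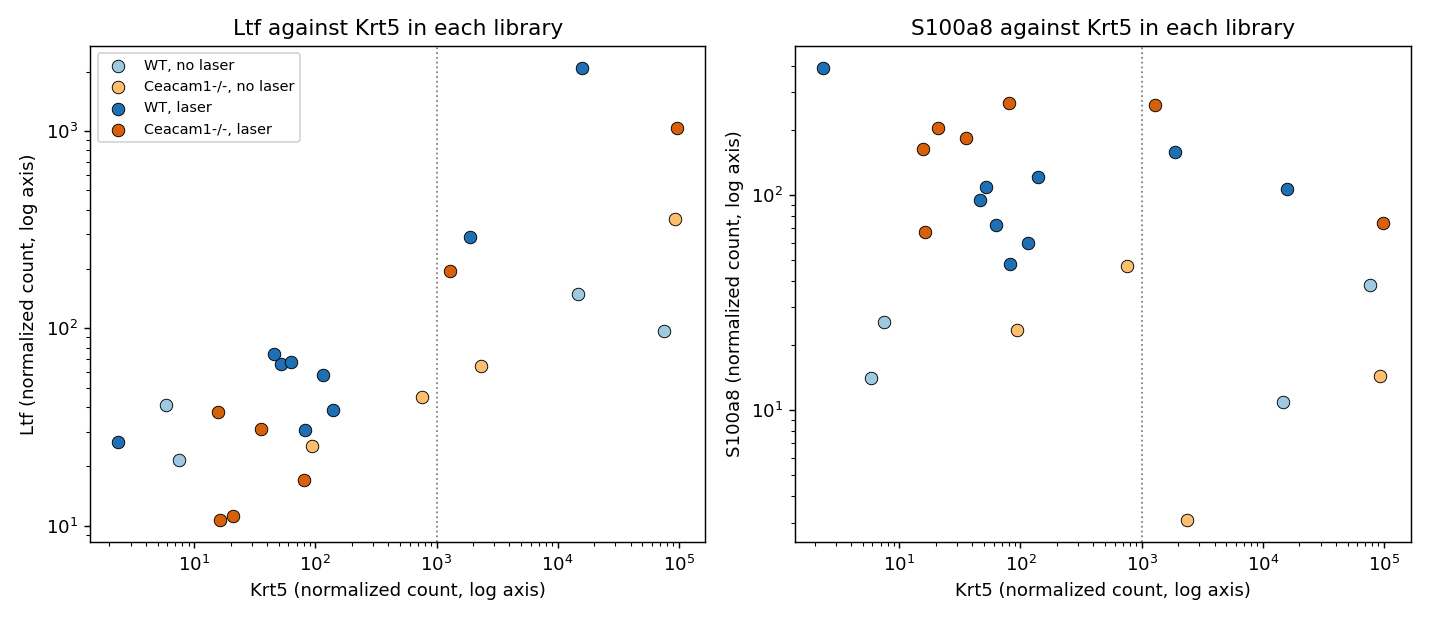
Each point is one library, with Krt5 on the horizontal axis and Ltf (left) or S100a8 (right) on the vertical axis, all in normalized counts on log axes, coloured by group; the dotted line marks 1000 normalized counts of Krt5. To the right of the line Ltf lies between 64.9 and 2075, whereas S100a8 separates by laser group on both sides.

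Retnlg, a secreted resistin-like protein of mature neutrophils, was low but present in 20 of 24 libraries. Wild type libraries had 0, 1.05, 2.04 and 7.86 normalized counts without and 0 to 13.6 (median 3.72) with laser. Ceacam1-/- libraries had 1.02, 1.13, 1.24 and 9.20 without and 0 to 13.7 (median 5.80) with laser. The groups overlapped in both genotypes.

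The 5 genes below a mean of 10 normalized counts, Ly6g, Mpo, Elane, Ngp and Retnlg, were not part of the limma fit. They were compared by two-sided exact permutation tests of the mean log2(value + 1), laser against no laser, in each genotype. None of the 10 tests had an unadjusted p under 0.05, and exact p ranged from 0.364 to 1. The smallest values the designs allow, 0.0014 in wild type and 0.00303 in Ceacam1-/- mice, need a gene above 0 in enough libraries. Ly6g and Elane in each genotype, and Mpo in Ceacam1-/- mice, were above 0 in 1 library, and Ngp in wild type mice in 2. Those tests could not have reached 0.05 and decide nothing. The nearest to a difference in size was Retnlg, at 0.63 in wild type (exact p = 0.421) and 0.72 in Ceacam1-/- mice (exact p = 0.415). For Ly6g and Elane the exact p was 1 in both genotypes.

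Levels of different genes were compared per kilobase within each group. Without laser, Camp had medians of 115 normalized counts per kilobase in wild type and 149 in Ceacam1-/- mice, S100a8 31.0 and 29.8, and S100a9 23.8 and 42.5. With laser, S100a8 had medians of 166 and 287, Camp 131 and 112, and S100a9 67.4 and 98.9. Camp thus led in both groups without laser, where its range lay above that of S100a8, and S100a8 led in both groups with laser, where the ranges overlapped. The group medians were 11.1 to 24.8 for Ltf, 10.6 to 21.5 for Cxcr2 and 1.52 to 7.44 for Retnlg. In wild type libraries without laser, Ltf (24.8) lay slightly above S100a9 (23.8). Over all 24 libraries, Ly6g, Mpo, Elane and Ngp had a median of 0.

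Without the 8 libraries rich in Krt5, none of S100a9, Cxcr2, Camp and Ltf passed the threshold either. The S100a9 difference was 1.88 in wild type (SE 0.91, limma adjusted p = 0.448) and 1.41 in Ceacam1-/- mice (SE 0.95, limma adjusted p = 0.394). That of Cxcr2 was -0.15 and -0.18, that of Camp 0.06 and -0.74, and that of Ltf 0.68 and -0.80.

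Neither the laser difference nor the level of a listed gene was called different between genotypes. No gene of the 19950 tested passed the threshold in the interaction of laser and genotype (0% called, 1241 with an unadjusted p under 0.05), and none of the 5 listed genes had an unadjusted p under 0.05. For S100a8 the laser difference in Ceacam1-/- minus that in wild type mice was 0.88 (95% interval -0.80 to 2.55, adjusted p = 0.698). For S100a9 it was -0.13 (SE 0.91), for Camp -0.84 (SE 0.76) and for Ltf -1.16 (95% interval -4.47 to 2.14). The interval for S100a8 includes differences of some size in either direction.

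Between the genotypes after laser, 4 of 19757 genes were called (0.0202%), and 0 of the 5 listed genes. The count over all genes was 25 without wild type laser library 17 and 61 without wild type laser library 19, still with 0 listed genes. S100a8 was 0.55 higher in Ceacam1-/- mice (95% interval -0.30 to 1.40, adjusted p = 0.403), S100a9 0.56 higher (-0.61 to 1.73) and Cxcr2 0.65 higher (-0.07 to 1.38, adjusted p = 0.257). Camp differed by -0.45 (SE 0.49) and Ltf by -0.90 (SE 0.99). Every one of these intervals held 0. Without laser, 0 of 20057 genes were called (0%, 307 with an unadjusted p under 0.05). Ceacam1, the deleted gene, was among those tested and was not called, although its median was 2919 in wild type and 506 in Ceacam1-/- libraries. The absence of a call in this comparison therefore does not show an absence of a difference. The paper did report some differentially expressed genes for healthy choroid, from a count model with sex as a covariate. S100a8 differed by -0.33 (95% interval -2.16 to 1.496), S100a9 by 0.69 (-0.65 to 2.03) and Cxcr2 by 0.64 (-0.27 to 1.54), each with adjusted p = 0.999 in limma.

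The listed genes did not vary as 1 group across the laser libraries. Relations were computed for the 10 pairs of S100a8, S100a9, Cxcr2, Camp and Ltf within each genotype, on log2(value + 1), with exact permutation p adjusted over the 10 pairs. S100a8 and S100a9 ran together over the 9 wild type libraries (Pearson's r = 0.91, exact p = 0.00232, adjusted p = 0.0177, Spearman's rank coefficient = 0.80, exact p = 0.0138, adjusted p = 0.0691). Without libraries 1 and 13, those farthest from the median, r was 0.69 over 7 libraries (exact p = 0.0889), so that the relation rested in part on them. Over the 7 Ceacam1-/- libraries r was 0.90 (exact p = 0.00179, adjusted p = 0.00893) and rank coefficient 0.89 (adjusted p = 0.041), and r was 0.77 over the 5 left without libraries 14 and 15 (exact p = 0.142).

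Cxcr2 followed S100a9 in both genotypes. In wild type r was 0.78 (exact p = 0.012, adjusted p = 0.0401) and rank coefficient 0.70 (exact p = 0.0433, adjusted p = 0.144), and r was 0.86 without libraries 1 and 3 (exact p = 0.0123). In Ceacam1-/- mice r was 0.89 (exact p = 0.000198, the smallest that permutations can give, adjusted p = 0.00198), and the ranks agreed fully (rank coefficient = 1.00, exact p = 0.000397, adjusted p = 0.00397). Without libraries 14 and 18, r was 0.93 over 5 libraries (exact p = 0.00833, the smallest that 5 libraries allow). Cxcr2 and Camp were related in wild type (r = 0.86, exact p = 0.00355, adjusted p = 0.0177, rank coefficient = 0.92, exact p = 0.00131, adjusted p = 0.0131), also without libraries 1 and 11 (r = 0.94, exact p = 0.00198). S100a9 and Camp had r = 0.60 in wild type (exact p = 0.0787, adjusted p = 0.157), and r = 0.93 without libraries 1 and 3 (exact p = 0.00198). In Ceacam1-/- libraries, S100a9 and Camp had r = 0.83 (exact p = 0.0377, adjusted p = 0.105) and rank coefficient = 0.64. Cxcr2 and Camp had r = 0.67 there (exact p = 0.055, adjusted p = 0.11) and rank coefficient = 0.64. In ranks alone, S100a8 and Cxcr2 also passed in Ceacam1-/- mice (rank coefficient = 0.89, adjusted p = 0.041). Their r was 0.65 in wild type and 0.78 in Ceacam1-/- mice (permutation, adjusted p = 0.143 and 0.105). S100a8 and Camp had r = 0.54 and 0.64 (permutation, adjusted p = 0.214 and 0.182). Ltf was apart, with r between -0.24 and 0.23 in its 8 pairs. The pairs share libraries and their scaling, and whether a cell type or a technical property of the libraries moved them together was not tested.

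The genes outside the list that were most alike to the mean z score of the 5 tested genes over all 24 libraries were Rhno1 (r = 0.74), Coro1b (r = 0.73), Zfp217 (r = 0.72), Efna4 (r = 0.71) and Pnp (r = 0.71). Coro1b encodes an actin regulator and Pnp a purine salvage enzyme. These values are a description of 24 libraries that share the laser contrast.

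Other neutrophil genes were counted from wider lists by role. The filter took the mean over all 24 libraries, so that Prtn3, Mmp8, Cxcl3 and 6 of the receptor genes passed it only through the laser libraries, with means under 10 without laser. Such genes could enter the fit only if they were higher with laser, and the lists are therefore also counted without a filter, where 1.59% of all genes rose in wild type and 0.656% in Ceacam1-/- mice. Of 3 further primary granule genes, Ms4a3 was at 0 in every library, Ctsg was below the filter, and Prtn3, the proteinase 3 gene, was tested. Prtn3, which overlaps Plppr3 on the opposite strand, had 0 to 9.08 normalized counts without and 10.6 to 37.4 with laser in wild type mice. The mutant libraries had 1.09 to 14.2 without and 9.41 to 63.8 with laser. Its differences of 1.93 (SE 0.59) and 1.85 (SE 0.61) did not pass the threshold (limma, adjusted p = 0.0571 and 0.089). The wild type groups did not overlap, which held for 4.5% of all tested genes in that direction.

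Mmp8, Mmp9 and Lcn2, genes of secondary and tertiary granules, rose in both genotypes. Of 8 further secondary and tertiary granule genes, 5 were tested and 3 rose in wild type and 3 in Ceacam1-/- mice, the same 3 in both, where 4.23% and 2.07% of all tested genes rose. Without a filter, 3 of all 8 rose in each genotype, and the median log2 difference of the 8 was 1.70 and 1.04. Hp, the haptoglobin gene, had differences of 1.17 and 1.36 (limma, adjusted p = 0.266 and 0.211). Olfm4, a glycoprotein of a subset of neutrophils and of epithelia, had -1.05 and 0.33 (limma, adjusted p = 0.591 and 0.893), with medians of 70.3 normalized counts without and 26.01 with laser in wild type mice. Mmp8, neutrophil collagenase, had 1.84, 8.14, 8.20 and 15.6 normalized counts in wild type libraries without laser and 75.7 to 355 (median 198) with laser. In Ceacam1-/- libraries it had 2.06, 2.98, 7.09 and 8.10 without and 11.7 to 217 (median 85.0) with laser. Neither pair of groups overlapped, where 4.5% of all tested genes were separated in the higher direction in wild type and 1.17% in Ceacam1-/- mice. The differences were 4.55 (SE 0.60, limma adjusted p = 5.03e-05) and 3.71 (SE 0.63, limma adjusted p = 0.00186), in the fit that Mmp8 entered only through the laser libraries.

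Mmp9, gelatinase B, had 17.1 to 199.8 normalized counts in wild type libraries without laser (median 74.8) and 343 to 1227 with laser (median 644). The rise was 3.45 in wild type (SE 0.58, limma adjusted p = 0.000671) and 3.73 in mutants (SE 0.60, limma adjusted p = 0.00115). Lcn2, the siderophore-binding lipocalin that epithelia and glia make as well, had 12.98, 25.2, 29.8 and 33.9 normalized counts in wild type libraries without laser and 137 to 670 (median 191) with laser. In Ceacam1-/- libraries it had 7.91, 20.2, 40.4 and 109 without and 179 to 1375 (median 212) with laser. Libraries 14 and 18, the pair with the highest means of the photoreceptor list, held 1061 and 1375, and the other 5 at most 365. Lcn2 rose by 3.29 (SE 0.60, limma adjusted p = 0.00144) and 3.58 (SE 0.62, limma adjusted p = 0.00229), and by 3.56 and 3.16 with that mean as a covariate (limma adjusted p = 0.000307 and 0.00273). All 3 differences were larger than that of S100a8 in wild type, although no test between genes was made. Fcnb, Itgb2l and Cd177, the other granule genes of that list that fell below the filter, had at most 18.5 normalized counts in any library.

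Of 17 genes for receptors and the mature state, 14 were tested, and 6 rose in wild type and 4 in mutant mice, where 4.23% and 2.07% of all tested genes rose. Of these, 4 and 4 were among the 6 that passed the filter only through the laser libraries (Acod1, Clec4e, Fpr1, Fpr2, Trem1 and Wfdc21), and 2 and 0 among the other 8. Without a filter, 5 and 4 of all 17 rose (median log2 difference 1.12 and 1.13). With the mean of the photoreceptor list as a covariate, 5 and 6 of the 14 tested rose, beside 4.27% and 3.51% of all tested genes. Clec4e, a receptor that senses mycobacterial glycolipid and damaged cells, had 0 to 9.04 normalized counts without and 49.1 to 285 with laser in wild type mice. The mutant libraries had 0 to 9.45 without and 24.8 to 233 with laser. Acod1, the itaconate-producing enzyme of activated myeloid cells, had 0 to 6.09 without and 22.99 to 138 with laser in wild type mice. They rose in both genotypes, by 5.59 and 5.68 for Clec4e and by 5.18 and 4.90 for Acod1 (limma, adjusted p of 2.04e-05, 9.72e-05, 0.000437 and 0.00275), and both passed without a filter too. Csf3r, the receptor for the neutrophil growth factor, rose in wild type by 1.85 (SE 0.44, limma adjusted p = 0.0124), and its difference in Ceacam1-/- mice was 1.13 (SE 0.45, limma adjusted p = 0.159). Trem1, which amplifies myeloid activation, was listed at 0 in all 8 libraries without laser and had 0 to 40.0 and 2.99 to 40.2 normalized counts with laser. Padi4, an enzyme that citrullinates histones, had a log2 difference of -0.57 in the wild type and of 1.21 in the mutant libraries, neither past the threshold.

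**Figure D4:**
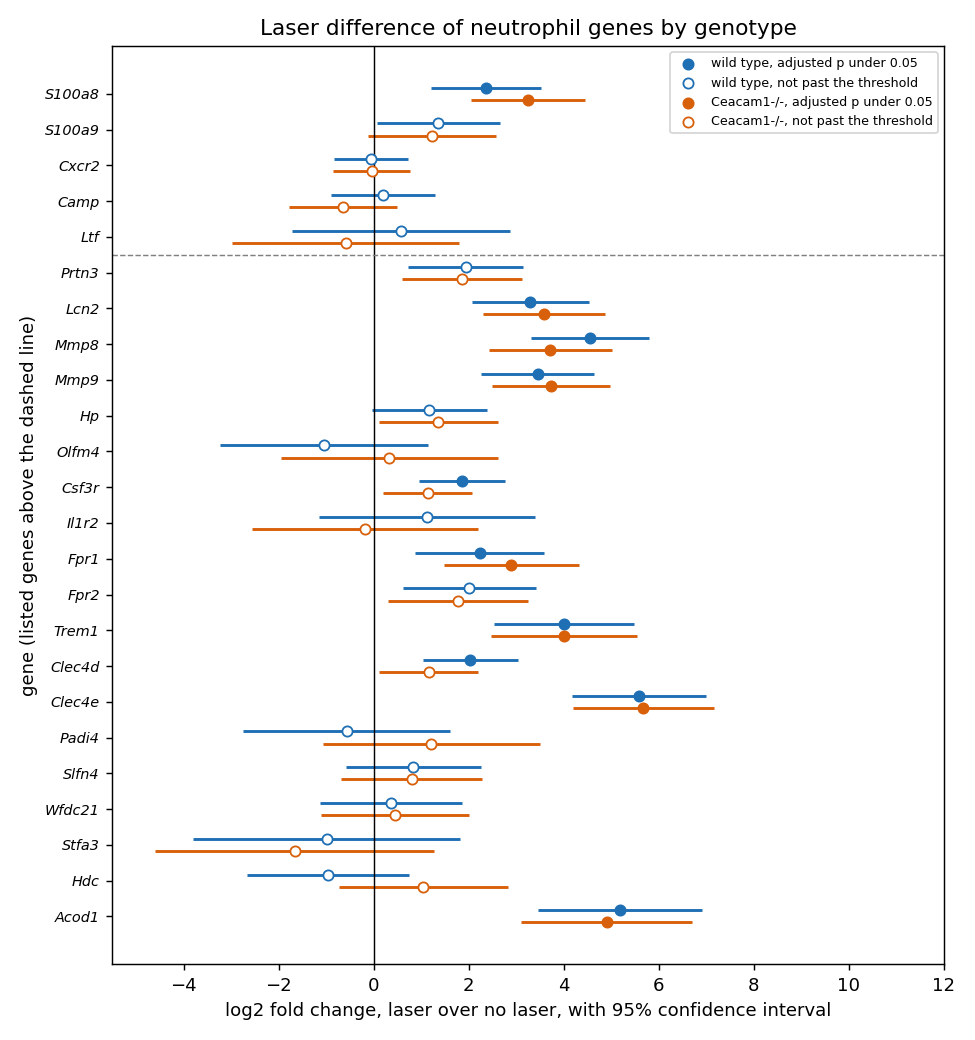
Points give the log2 fold change of laser over no laser (horizontal axis) of the neutrophil genes that were tested and are reported here, with its 95% confidence interval as a line, in wild type (blue) and Ceacam1-/- mice (orange); filled points had an adjusted p under 0.05. Above the dashed line only S100a8 is filled in both genotypes, while below it Lcn2, Mmp8, Mmp9, Fpr1, Trem1, Clec4e and Acod1 are filled in both, of which Mmp8, Fpr1, Trem1, Clec4e and Acod1 passed the filter only through the laser libraries.

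Signals that attract or form neutrophils were counted too. Of 6 ligands and growth factors, 5 were tested, and 2 rose in wild type and 1 in Ceacam1-/- mice, against 4.23% and 2.07% of all tested genes, shares that apply to the transcription factors too. Without a filter, 2 and 1 of all 6 ligands rose. The wild type calls of Fpr1 and Cebpd were lost without a filter (limma adjusted p = 0.0967 and 0.0715). Cxcl5, a Cxcr2 ligand, had 27.9 to 132 normalized counts without and 207 to 432 with laser in wild type mice, and 39.4 to 66.0 without and 85.1 to 709 with laser in Ceacam1-/- mice. It rose by 2.14 (SE 0.42, limma adjusted p = 0.00289) and 2.22 (SE 0.44, limma adjusted p = 0.00661). Cxcl3, another Cxcr2 ligand, was listed at 0 in all 8 libraries without laser and had 3.78 to 37.9 normalized counts in wild type and 0 to 139 in Ceacam1-/- libraries with laser. Csf3, the growth factor itself, was under the filter with at most 14.0 normalized counts. Of 5 transcription factors, 3 were tested, and Spi1 and Cebpd rose in wild type by 2.25 (SE 0.34) and 1.02 (SE 0.29), and Spi1 in Ceacam1-/- mice by 1.62 (SE 0.36). Cebpe and Gfi1, which act in granulocyte precursors, had at most 5.84 and 22.05 normalized counts in any library.

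Monocyte and macrophage genes moved in the same comparisons. Of 12 genes, 10 rose in wild type and 6 in mutant mice (median log2 difference 2.12 and 1.53), beside 4.23% and 2.07% of all tested genes. With the mean of the photoreceptor list as a covariate, 10 and 9 rose. Ccr2, the receptor of inflammatory monocytes, rose by 2.91 (SE 0.39, limma adjusted p = 5.2e-05) and 2.81 (SE 0.40, limma adjusted p = 0.000325). Lyz2, the lysozyme gene of macrophages and neutrophils alike, rose by 2.74 (SE 0.40) and 2.44 (SE 0.41). The sum of the list, led by Lyz2, was 11080 to 23163 normalized counts in wild type libraries without and 50681 to 131320 with laser, and 11443 to 16385 and 16896 to 93885 in Ceacam1-/- mice. Ceacam1-/- laser libraries 14, 15 and 18, which had the highest means of the photoreceptor list among laser libraries (15.8 to 16.6), held sums of 27663, 24938 and 16896, and the other 4 held 66678 to 93885. The part of retinal tissue in this spread was not tested. No gene of the list was at 0 in every library. Mmp8 was also lowest in libraries 14, 15 and 18 among the Ceacam1-/- laser libraries (59.3, 34.2 and 11.7 normalized counts), as was Lyz2 (16947, 14152 and 10015). S100a8 had 67.2, 74.5 and 268 in these libraries. S100a8, Clec4e, Acod1, Spi1 and Lcn2 are also transcribed by activated monocytes or macrophages or by other cells. The part of such cells in the laser differences, those of Mmp8 and Mmp9 included, was not tested.

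Genes of other blood cells and of dividing cells were counted as well. Of 5 tested red blood cell genes 0 rose or fell in either genotype, with a median log2 difference of 1.18 and 0.81, and the sum of that list, led by Hba-a2, spanned 629 to 8123 normalized counts in wild type libraries without and 1499 to 13095 with laser. Of 5 mast cell genes and 7 lymphocyte genes tested, none passed the threshold in either genotype. Of 3 platelet genes, Pf4 rose in both, by 2.15 (SE 0.40) and 1.77 (SE 0.42), beside 4.23% and 2.07% of all tested genes. The other 2 were not called, and the median log2 difference of the 3 was 0.54 and 0.22. The list for marrow and dividing cells held mostly cell cycle genes, with Cd34 and with Kit, which was also in the mast cell list. It therefore does not single out marrow. Of its 7 genes, 4 rose in wild type and 0 in Ceacam1-/- mice, beside 4.23% and 2.07% of all tested genes. In Ceacam1-/- mice 4 rose without the libraries rich in Krt5, and 4 with the mean of the photoreceptor list as a covariate. Cdk1, a cell cycle kinase, rose in wild type by 1.89 (SE 0.40, limma adjusted p = 0.00579), and its difference in Ceacam1-/- mice was 0.71 (SE 0.42, limma adjusted p = 0.357). The contrast of the genotypes was tested by the interaction, where Cdk1 had an adjusted p of 0.64. Of 1 eosinophil and basophil gene tested, Siglecf, and of the endothelial, pigment epithelial, melanocyte, photoreceptor and skeletal muscle lists, none passed the threshold in either genotype. The tissue lists nevertheless had medians away from 0. For photoreceptors the median log2 difference was 2.36 in Ceacam1-/- mice, with 6 of 6 genes above 0, and -1.48 in wild type, with 0 of 6 above 0, and no gene had an unadjusted p under 0.05. Skeletal muscle and pigment epithelium had medians of -1.94 and -1.61 in Ceacam1-/- mice, each with 0 of 6 genes above 0 and 5 with an unadjusted p under 0.05, against -0.82 and -0.07 in wild type. Endothelial and melanocyte medians were -0.13 and -0.41 in the mutants and 0.42 and 0.54 in wild type. The part of these tissues in the laser differences of neutrophil genes was not tested.

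The lists were counted again without the 8 libraries rich in Krt5, where 1.73% of all tested genes rose in wild type and 2.72% in Ceacam1-/- mice. Of the secondary and tertiary granule genes 3 rose in each genotype, of 13 receptor and mature state genes 2 and 4, of the ligands 1 and 1, of the transcription factors 1 and 1, and of the monocyte and macrophage genes 7 and 5. Tissue lists were called there too, with 5 of 6 skeletal muscle genes (median -3.29) and 1 of 6 pigment epithelium genes (median -2.39) fallen in Ceacam1-/- mice, besides the surface epithelium genes above. Mmp8, Mmp9, Lcn2, Clec4e, Acod1, Cxcl5, Spi1, Ccr2 and Lyz2 passed in both genotypes. In wild type mice, Csf3r (1.37, limma adjusted p = 0.261), Trem1 (3.86, limma adjusted p = 0.0905), Cebpd (0.97, limma adjusted p = 0.23) and Cdk1 (1.99, limma adjusted p = 0.0781) no longer passed. Among the mutants Pf4 did not pass (1.55, limma adjusted p = 0.0969), whereas Prtn3 did (2.77, limma adjusted p = 0.0283), a gene without a call in the fit without a filter (limma adjusted p = 0.171).

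**Figure D5:**
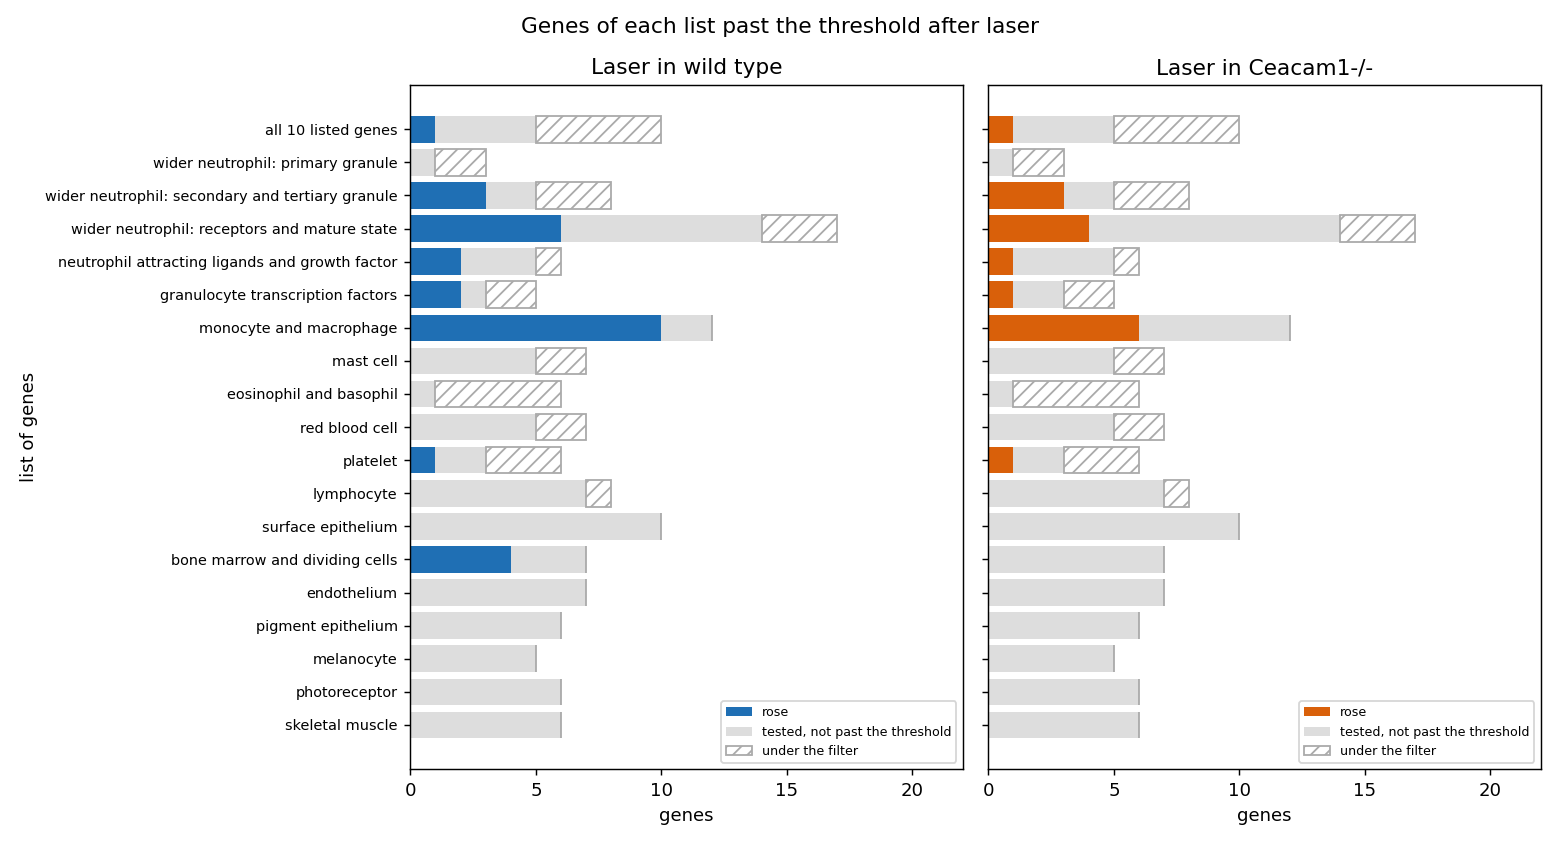
Bars give, for the 10 genes and for each further list, the number of genes (horizontal axis) that rose after laser (coloured), that were tested without passing the threshold (grey) and that were under the filter (hatched), in wild type (left) and Ceacam1-/- mice (right). The monocyte and macrophage list has the most genes that rose, 10 of 12 and 6 of 12, against 1 of the 10 listed genes.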

How the data were processed

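Choroidal RNA of 24 libraries was analysed, 1 group each for wild type and Ceacam1-/- mice with and without laser, as the sample labels give them. Whether each library came from a separate mouse is not stated there, so that p-values measure the spread between libraries. Per the labels and the methods of the study, the authors made SMART-Seq libraries, checked reads with FastQC 0.11.5, quantified them with Salmon 1.10.3 on GRCm39 and normalized them with DESeq2 1.44.0. The signal values deposited by the authors are the resulting normalized counts, estimated reads divided by factors for library size and transcript length. Whole reads were not recovered, so no count model was run and no depth per library is given.

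Genes with a mean of at least 10 normalized counts were tested with limma 3.58.1 (R 4.3.3, variance trend) on log2(value + 1), with p adjusted by the Benjamini-Hochberg method over all genes tested and a threshold of 0.05. Laser and interaction were fitted in all 24 libraries, genotype in the 16 with and the 8 without laser. Scripts were tested on simulated data. Positions were taken from the GENCODE annotation of GRCm39, which matched 99.1% of gene identifiers, and promoters from RefSeq. Levels of different genes were compared per kilobase of the longest annotated transcript.

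The 10 genes and the lists were chosen with earlier results of these data known. All 10 genes were named, from each further list up to 4 genes (lowest p in each direction among those called in wild type, or the 2 of lowest p where none was), members of the wider neutrophil lists by role, and the 5 genes most alike. The fits were repeated with a pseudocount of 0.5 or 10, without a filter, with a minimum mean of 50, with quantile or upper-quartile scaling, no trend, array weights, Y-linked genes as covariate, other sets of libraries, and each library left out. Scores of surface epithelium and photoreceptor genes as covariates and leaving out libraries rich in Krt5 were chosen after seeing the data. Some single genes of the lists are not reported here.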

Additional observations from a re-analysis of the deposited data

Results flagged for a closer look

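Of 34 sets of values tested, 1 gene in 1 group each, 15 had a highest library that stood apart from the rest of its group by Dixon's criterion. The criterion flags about 1 in 20 sets of normally distributed values. It was applied to normalized counts without a log, which are skewed and often 0, so that the 15 cannot be set against that rate. The criterion is met by any single value above 0 in a group otherwise at 0. This was so for Ly6g in wild type laser library 1 (2.30 normalized counts) and Ceacam1-/- laser library 15 (4.14), for Mpo in wild type library 21 (1.73) and Ceacam1-/- library 23 (2.01) without laser, and for Elane in wild type laser library 11 (5.07) and Ceacam1-/- laser library 6 (2.20). Mpo in wild type laser library 2 (4.43), Ngp in wild type laser library 1 (6.96) and Ceacam1-/- laser library 6 (10.6), and Retnlg in Ceacam1-/- library 25 without laser (9.20) also stood apart at low values.

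At higher values, wild type laser library 1 stood apart for S100a8 (388) and S100a9 (292), and was thus the highest library for S100a8, S100a9, Ly6g and Ngp in its group. Ltf stood apart in wild type laser library 19 (2075), Ceacam1-/- laser library 15 (1033) and Ceacam1-/- library 28 without laser (357), which had 15790, 97240 and 92649 normalized counts of Krt5.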

How the results depend on the processing

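Over 26 alternatives in wild type, the S100a8 difference ranged from 1.95 to 2.67 and kept its call in 23. Over 24 in Ceacam1-/- mice it ranged from 2.25 to 3.79 and kept its call in 22. The number of listed genes called in wild type was 0 to 1 with each library left out and 0 without the libraries rich in Krt5, against 1. In Ceacam1-/- mice it was 2 with array weights (S100a9 added), 0 in a fit of the libraries compared and 0 without the libraries rich in Krt5. The counts for the interaction, for both genotype comparisons, and for genes under the filter did not change. Among wild type relations 3 were called with and without the 2 libraries farthest from the median, but S100a8 with S100a9 was lost and S100a9 with Camp gained. Relations called among Ceacam1-/- libraries fell from 2 to 0 without the 2 libraries farthest from the median, where 5 remain. The smallest adjusted p was 0.0833, from a pair at 0.00833, the smallest exact p that 5 libraries allow. A single pair could therefore not pass, and the fall decides nothing about that pair. Over all genes, 1053 were called in wild type and 742 in Ceacam1-/- mice, but 6505 and 3551 with array weights, 2274 and 38 in a fit of the libraries compared, and 349 and 1443 without the libraries rich in Krt5, and without a filter 437 in Ceacam1-/- mice. With each library left out these counts ranged from 479 to 1162 and from 148 to 2488. The 4 genes called between genotypes after laser became 2 with a minimum mean of 50 or without the libraries rich in Krt5, 9 with all 24 libraries fitted and 297 with array weights, and 4 to 61 with a library left out.

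Values that were not called changed sign. In wild type, Cxcr2 was 0.14 with quantile normalization and 0.09, 0.02 and 0.10 without libraries 11, 16 and 26 (the lowest with a library left out was -0.23, without library 1). Ltf was -0.20 with array weights, and Camp -0.074 with the photoreceptor score. In Ceacam1-/- mice, Cxcr2 was 0.0072 with array weights, 0.18 with the photoreceptor score, and 0.0098, 0.05, 0.02, 0.02 and 0.11 without libraries 6, 14, 15, 25 and 28 (lowest with a library left out -0.27, without library 23). Ltf was 0.20 with array weights, 0.18 without library 28 (lowest with a library left out -1.32, without library 15) and 0.60 with the surface epithelium score. The cause was not tested. No paired analysis was possible because the labels give no mouse or litter by which libraries could be paired.

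Estimated reads are not whole, and how many reads stood behind a low value is unknown, so for Ly6g, Mpo, Elane and Ngp an absence of mRNA cannot be told from one below detection.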
